A study of Mus musculus with 15 samples.

Results

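Public CDR3s of the tumor-draining lymph node (TdLN) are the complementarity-determining region 3 amino acid sequences of the T cell receptor (TCR) β chain that were found in the nodes of more than 1 mouse. They were chosen by a single rule, the presence of the same productive CDR3 in at least 2 of the 5 nodes sequenced, and 626 of the 13504 distinct CDR3s of the nodes met it (14779 CDR3s were found in all samples). Of these, 545 were found in 2 nodes, 67 in 3, 13 in 4 and 1 in all 5, and 12878 CDR3s were found in 1 node. A CDR3 is made when a V, a D and a J gene segment are joined in a developing T cell, with bases trimmed from the segment ends and non-templated (N) bases added between them by the enzyme TdT. Since several nucleotide sequences code for the same amino acids, separate T cells, and separate animals, can reach the same CDR3 by different joins, which is known as convergent recombination. CDR3s shared between individuals are called public, and those built from germline segments with few N bases are made more often than others.

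The samples came from 5 untreated control mice, 6-week-old female C57BL/6 animals that carried B16F10GP, a B16F10 melanoma line transduced with the glycoprotein of lymphocytic choriomeningitis virus, on both flanks. Cells were injected into the right flank on day 0 (tumor 1, the right tumor) and into the left flank on day 3 (tumor 2, the left tumor). Organs were collected on day 19, the TdLN being that of the tumor 1 side. CD8+ PD-1+ CD44+ T cells, which are antigen-experienced, were sorted from the node and both tumors of each mouse, and TCR β rearrangements were read from their genomic DNA. The assay reports each distinct 87-base rearrangement with an estimated number of templates, the genomes that carried it.

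Productive rearrangements, which are in frame and without a stop codon, made up 3254 to 9105 templates per node (median 3940), 3601 to 6137 per right tumor and 238 to 3975 per left tumor. The nodes of mice 4 and 5 were the largest, with 8728 and 9105 productive templates and 5238 and 4985 CDR3s, against 1214 to 1533 CDR3s in the others. Sample names of mice 1 to 3 are written in another style than those of mice 4 and 5, and each set is therefore also described on its own. Whether a small TCR was detected depends on depth, and 3 templates, the limit that a count of 0 allows, correspond to 0.0329% to 0.0922% of a node. Template numbers are estimates from a PCR assay, so all intervals cover counting error only.

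The CDR3 found in all 5 nodes, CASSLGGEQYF, shows how one amino acid sequence arose from many joins. It had 6, 2, 5, 26 and 2 templates in the nodes of mice 1 to 5, and no template in any of the 10 tumors. It was coded by 12 rearrangements with 6 V genes, all joined to Trbj2-7, and 9 of the 12 carried no N insertion. One coding sequence from each node is given here from the first base of the CDR3 to the last base before the codon of its closing phenylalanine, where the 87-base read ends, with N insertions in capitals and germline bases in lower case.
mouse 1, Trbv29 to Trbj2-7: tgtgctagcagtttagggggcgaacagtac
mouse 2, Trbv12-2 to Trbj2-7: tgtgccagctctctggggggtgaacagtac
mouse 3, Trbv26 to Trbj2-7: tgtgccagcagtctggggggggaacagtac
mouse 4, Trbv16 to Trbj2-7: tgtgcaagcagcttagGtggtgaacagtac
mouse 5, Trbv17 to Trbj2-7: tgtgctagcagtctggggggtgaacagtac
The sequence shown for mouse 2 was the only one of the 12 rearrangements found in a second node, that of mouse 4 with 9 templates. The other 4 lines each belong to a single node.

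A CDR3 found in 4 nodes was present in tumors as well, with different coding sequences in each node. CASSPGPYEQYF, most often joined from Trbv12-1 and Trbj2-7, had 11, 1, 9, 0 and 4 node templates in mice 1 to 5. None of its 6 node rearrangements was found in 2 nodes, and its 5 coding sequences in the nodes were followed by others in the left tumor of mouse 5.
node 1, 9 templates: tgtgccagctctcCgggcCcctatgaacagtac
node 1, 2 templates: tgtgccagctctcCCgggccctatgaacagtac
node 2, 1 template: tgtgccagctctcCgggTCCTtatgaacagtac
node 3, 8 templates: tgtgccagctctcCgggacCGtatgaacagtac
node 5, 4 templates: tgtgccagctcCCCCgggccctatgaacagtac
left tumor of mouse 5, 21 templates: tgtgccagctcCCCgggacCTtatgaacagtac
left tumor of mouse 5, 15 templates: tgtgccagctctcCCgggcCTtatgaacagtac
The sequence of node 5 had 65 templates in the right tumor of that mouse and 1 in the left. The sequence of node 2 had 11 templates in the right and 8 in the left tumor of mouse 2. In mouse 5, 3 different coding sequences of the same CDR3 were thus found at 15 or more templates in the tumors, the last 2 of them in no node.

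The wider set of public CDR3s followed the same description. A public CDR3 was coded by a mean of 2.62 nucleotide rearrangements over the nodes (median 2, highest 12), and 586 of 626 (93.6%) had at least 2. A CDR3 found in 1 node had a mean of 1.09, and 7.81% had at least 2. Many of these variants differed only upstream of the CDR3: counted by the CDR3 coding sequence alone, 561 of 626 public CDR3s (89.6%) and 1.92% of single-node CDR3s had at least 2. At least 2 V genes were used by 421 public CDR3s (67.3%), up to 7 for one CDR3, whereas 8 used at least 2 J genes. After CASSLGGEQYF the most variants belonged to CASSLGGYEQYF, with 10 rearrangements of 5 V genes, and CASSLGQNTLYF, with 9 rearrangements of 7 V genes, and neither had a template in a tumor. Since a CDR3 in 2 nodes has at least 2 chances to be coded differently, these counts are tied to the rule and carry no test. Within a single node, where that does not apply, 16.9% ± 7.11 of public and 6.65% ± 2.63 of single-node CDR3s had at least 2 rearrangements (SD, n = 5). These shares count whole rearrangements, including those that differ only upstream of the CDR3. Public CDR3s also had more templates in a node, at a mean of 3.30 against 2.27, which gives more chances to list a variant.

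Identical DNA was the exception among public CDR3s. The same rearrangement was present in at least 2 nodes for 85 of 626, and the same coding sequence for 113, so that 513 were coded differently in every node that held them. The 85 rearrangements found in several nodes had a mean of 1.26 N insertions, 37 had none, and 7 had at least 4. For comparison, 16 of 8543 out-of-frame rearrangements of the nodes (0.187%), which make no receptor, were found in several nodes, against 85 of 15622 productive ones (0.544%). The 2 shares are not on an equal footing, since a larger set has more chances of a match. Out-of-frame rearrangements also had more N insertions, at a mean of 4.16 against 3.43. The difference was not tested. A pair of nodes shared 29 to 313 CDR3s, most for mice 4 and 5. Counted per 1000000 possible pairs of CDR3s this was 16.6 to 19.02 among mice 1 to 3 and 8.62 to 11.99 in the other pairs. Leaving out the node of mouse 4 or of mouse 5 reduced the public CDR3s from 626 to 242 or 236, so a large part of the set rests on these 2 nodes.

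Public CDR3s were present at low copy number in the nodes. They made up 125, 179, 143, 451 and 450 CDR3s in mice 1 to 5, or 10.2% ± 1.47 of the CDR3s of a node (SD, n = 5), and 14.2% ± 2.04 of its productive templates. The median was 1 or 2 templates per node, and the mean was 3.30 ± 0.995, against 2.27 ± 0.671 for single-node CDR3s (SD, n = 5). Of the public CDR3s of a node, 44.7% ± 6.80 rested on a single template, against 57.4% ± 5.80 of single-node CDR3s. The largest in 4 of the nodes were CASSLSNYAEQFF in mouse 1 (109 templates), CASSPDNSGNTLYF in mouse 3 (109), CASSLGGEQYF in mouse 4 (26) and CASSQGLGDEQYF in mouse 5 (26). Larger CDR3s are more easily detected in a second node, so template numbers in nodes are given without a test.

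N insertions, which the rule did not use, were fewer in public CDR3s. Rearrangements coding for public CDR3s had a mean of 1.90, 2.12, 1.98, 1.77 and 1.67 N bases in the nodes of mice 1 to 5. Those coding for CDR3s of 1 node had 4.20, 3.99, 3.96, 3.52 and 3.41. The classes did not overlap, and public rearrangements lay lower in 5 of 5 nodes, at 1.89 ± 0.175 against 3.81 ± 0.336 bases (SD, n = 5). The mean within-node difference of -1.93 ± 0.228 bases (SD, n = 5) gave p = 0.0625 in a two-sided exact sign-flip permutation test. That is the smallest p that 5 mice allow in this test, so none of the within-mouse tests here can reach 0.05, and the nodes are not independent for this purpose because they hold the same public CDR3s by definition. The difference was -2.05 ± 0.217 in mice 1 to 3 and -1.74 ± 0.00273 in mice 4 and 5 (SD over 3 and 2 mice).

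Both junctions contributed: the V-D junction held 1.04 ± 0.106 N bases in public and 1.94 ± 0.188 in single-node rearrangements, and the D-J junction 0.842 ± 0.143 and 1.87 ± 0.15 (SD, n = 5). Rearrangements without any N base made up 23.8%, 20.9%, 20.7%, 28.6% and 31.0% of public rearrangements in mice 1 to 5. The corresponding shares of single-node rearrangements were 5.07%, 5.68%, 5.42%, 11.1% and 11.5%, lower in every node. The within-node difference was 17.2 ± 1.95 percentage points (SD, n = 5; exact sign-flip p = 0.0625), and it was 12.8 without the 113 CDR3s that had the same coding sequence in several nodes.

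**Figure D1:**
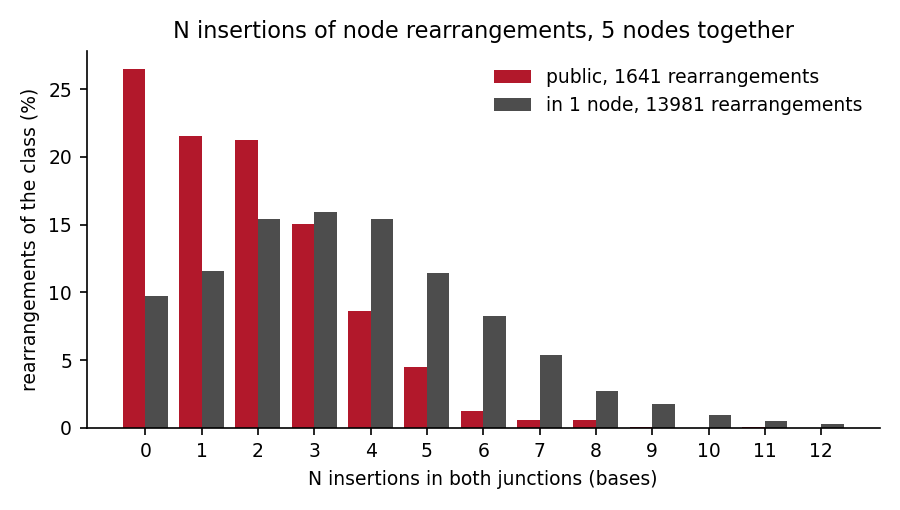
Number of N insertions in both junctions (x axis, bases) of the productive rearrangements of all 5 nodes together, as a percentage of each class (y axis), for public CDR3s (red) and CDR3s of 1 node (grey). Values above 12 are not drawn. At most 2 insertions were present in 69.3% of public and 36.7% of single-node rearrangements, and 6 or more in 2.50% and 20.5%.

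Insertions did not simply fall with the number of nodes. The mean was 3.62 bases for CDR3s of 1 node, 1.86 for those of 2, 1.56 for those of 3, and 2.36 for the 14 CDR3s of 4 or 5 nodes. The last group holds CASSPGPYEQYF, whose sequences above carry 2 to 5 N bases, and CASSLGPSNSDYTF, with a mean of 4.2 per rearrangement. These means are tied to few CDR3s in the last group and were not tested.

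The same measure was taken in the tumors. These values are not independent of those of the nodes, since the CDR3s are the same and most of them had the same coding sequence in the node and tumor of a mouse. Rearrangements of node-public CDR3s in the right tumors had 1.75, 1.97, 2.45, 1.79 and 2.08 N bases in mice 1 to 5, and all other rearrangements of these tumors had 4.43, 4.88, 4.55, 3.97 and 3.97. The mean within-tumor difference was -2.35 ± 0.427 bases (SD, n = 5; exact sign-flip p = 0.0625), or -1.4 with medians in place of means. Limited to CDR3s with a leading cysteine and a closing phenylalanine it was -1.85 ± 0.217 (SD, n = 5), with the others at 3.86 bases. The same limit left the difference in nodes at -1.88. In the left tumors the values were 2.27, 1.93, 2.18, 1.5 and 2.64 for public and 3.97, 4.26, 4.23, 3.96 and 3.57 for the others, a difference of -1.89 ± 0.615 (SD, n = 5; exact sign-flip p = 0.0625). With the limit on the CDR3 ends the left difference was -1.45 ± 0.463 (SD, n = 5). Public rearrangements lay lower in all 10 tumors, although that of mouse 4 on the left rests on 2 rearrangements. The difference was -2.56 ± 0.418 in mice 1 to 3 and -2.03 ± 0.209 in mice 4 and 5 on the right, and -2.03 ± 0.318 and -1.69 ± 1.08 on the left (SD over 3 and 2 mice).

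**Figure D2:**
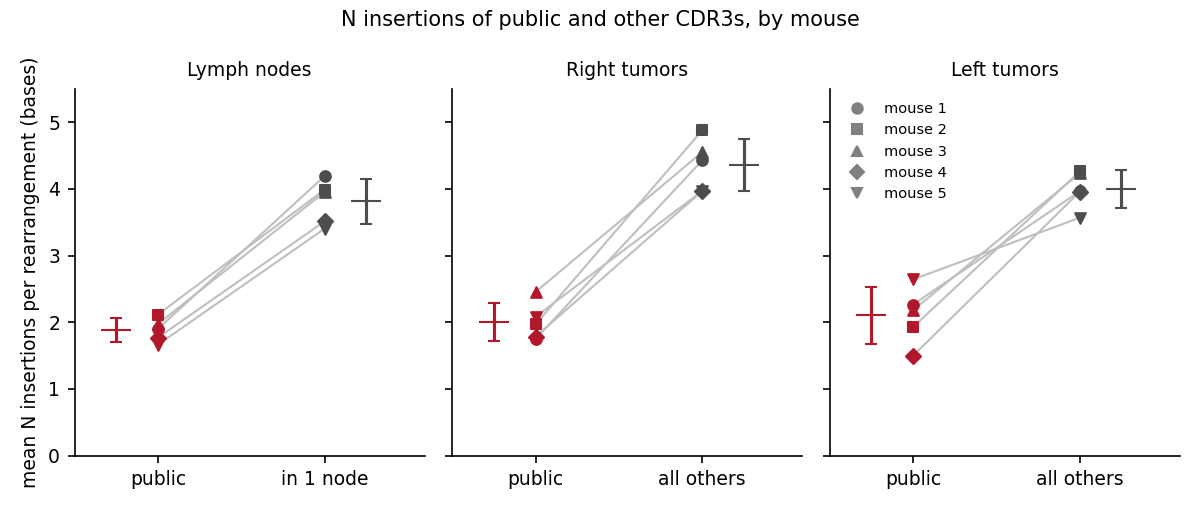
Mean N insertions per distinct rearrangement (y axis, bases) in the lymph nodes, right tumors and left tumors, for public CDR3s (red) and the others of the same sample (grey). Symbols are mice, lines join values of one sample, and bars give mean and SD (n = 5). Every line rises from the public CDR3s, at 1.5 to 2.64 bases, to the others, at 3.41 to 4.88.

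Public CDR3s were slightly shorter. Their mean length was 13.5, 13.4, 13.7, 13.5 and 13.5 residues in the nodes of mice 1 to 5, against 14.24, 14.16, 14.10, 14.02 and 14.04 for CDR3s of 1 node. The within-node difference was -0.62 ± 0.164 residues (SD, n = 5; exact sign-flip p = 0.0625), -0.65 ± 0.222 in mice 1 to 3 and -0.57 ± 0.0117 in mice 4 and 5. With medians in place of means it was 0, since the median was 14 in both classes. Public CDR3s spanned 10 to 17 residues and those of 1 node 4 to 20.

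V gene use of public CDR3s differed from that of CDR3s of the same node alone. With edgeR, 9 of the 19 V genes tested (47.4%) had an adjusted p under 0.05, 4 of them higher and 5 lower in public rearrangements, so a difference was common among V genes. Higher in 5 of 5 nodes were Trbv12-1 and Trbv3, and lower in 5 of 5 were Trbv19, Trbv1 and Trbv20. Trbv12-1, a V gene segment on chromosome 6 of GRCm38 from 41113550 to 41114067, made up 10.5%, 13.6%, 13.4%, 14.96% and 11.1% of public rearrangements in mice 1 to 5. The shares were 5.40%, 8.08%, 8.26%, 7.69% and 8.24% among single-node rearrangements. This was a log2 difference of 0.73 (edgeR adjusted p = 4.91e-05). Trbv12-2 (41118851 to 41119364), a gene of the same family, was higher in 4 of 5 nodes, at 9.02% ± 3.79 against 5.79% ± 1.94 (SD, n = 5, edgeR adjusted p = 8.05e-05). The 2 genes are near-identical, and the same CDR3 coding sequence was assigned to both in several cases, so the split between them is uncertain. Together they held 21.7% ± 4.94 of public and 13.3% ± 2.51 of single-node rearrangements.

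Trbv3 (41048290 to 41048828) made up 8.39%, 8.25%, 6.71%, 7.90% and 11.9% of public rearrangements, against 6.81%, 6.88%, 6.04%, 6.67% and 6.85% (edgeR adjusted p = 0.00965). With mouse 5 left out of both the rule and the test, 236 CDR3s were public in place of 626. The log2 difference of Trbv3 then went from 0.45 to -0.05 (edgeR adjusted p = 0.872). Trbv19 (41178375 to 41179048) was lower, at 6.29%, 7.28%, 3.66%, 4.37% and 4.67% of public against 9.97%, 9.55%, 9.41%, 6.60% and 6.81% of single-node rearrangements (log2 difference -0.63, edgeR adjusted p = 0.00191). Trbv1 and Trbv20, the first of which lies far upstream of the other V genes, made up 3.16% ± 0.998 and 0.834% ± 0.495 of public against 5.22% ± 0.369 and 2.53% ± 0.373 of single-node rearrangements (SD, n = 5). Their log2 differences were -0.97 and -1.47 (edgeR adjusted p = 6.80e-05 and 0.00191). With mouse 5 left out of the rule and the test, 4 V genes were called in all. Trbv1 and Trbv20 then lost their call, at log2 differences of -0.44 and -1.63 (edgeR adjusted p = 0.249 and 0.0884). A public CDR3 enters the counts of every node that holds it. With each counted in 1 node, 6 V genes were called, and Trbv20 was not (log2 difference -1.39, edgeR adjusted p = 0.0573). Of the other called genes, Trbv31 and Trbv13-2 were lower in 4 of 5 nodes, and Trbv26 was higher in 3 of 5. Shares sum to 100%, so a rise of some genes lowers the others.

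Among J genes, 5 of 12 tested (41.7%) differed, 1 higher and 4 lower, each in 5 of 5 nodes. Trbj2-7 (41543810 to 41543856), the J gene of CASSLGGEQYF and of the other sequences shown above, made up 27.3%, 31.4%, 26.8%, 30.6% and 29.4% of public rearrangements in mice 1 to 5. In single-node rearrangements it made up 21.7%, 20.3%, 19.9%, 21.5% and 21.3% (log2 difference 0.49, edgeR adjusted p = 3.48e-05). Trbj2-2 (41542957 to 41543007) made up 2.80%, 1.47%, 2.44%, 2.35% and 2.09% of public against 6.06%, 4.50%, 7.10%, 5.65% and 5.56% of single-node rearrangements (log2 difference -1.36, edgeR adjusted p = 3.48e-05). Trbj2-3, Trbj1-4 and Trbj1-5 were also lower, with log2 differences of -0.67, -0.47 and -0.71 (edgeR adjusted p = 0.00276, 0.0147 and 0.0351). With each public CDR3 counted in 1 node, 1 J gene was called, Trbj2-2, and Trbj2-7 was not (log2 difference 0.43, edgeR adjusted p = 0.121). With mouse 4 left out of the rule and the test, 3 J genes were called. Trbj2-3 and Trbj1-4 then lost their call, at log2 differences of -0.64 and -0.30 (edgeR adjusted p = 0.0529 and 0.440). Trbj1-5 lost its call with mouse 2, 3 or 5 left out in the same way, at log2 differences of -0.40, -0.72 and -0.81 (edgeR adjusted p = 0.174, 0.0574 and 0.192). With TMM scaling or DESeq2 neither Trbj1-4 nor Trbj1-5 was called.

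**Figure D3:**
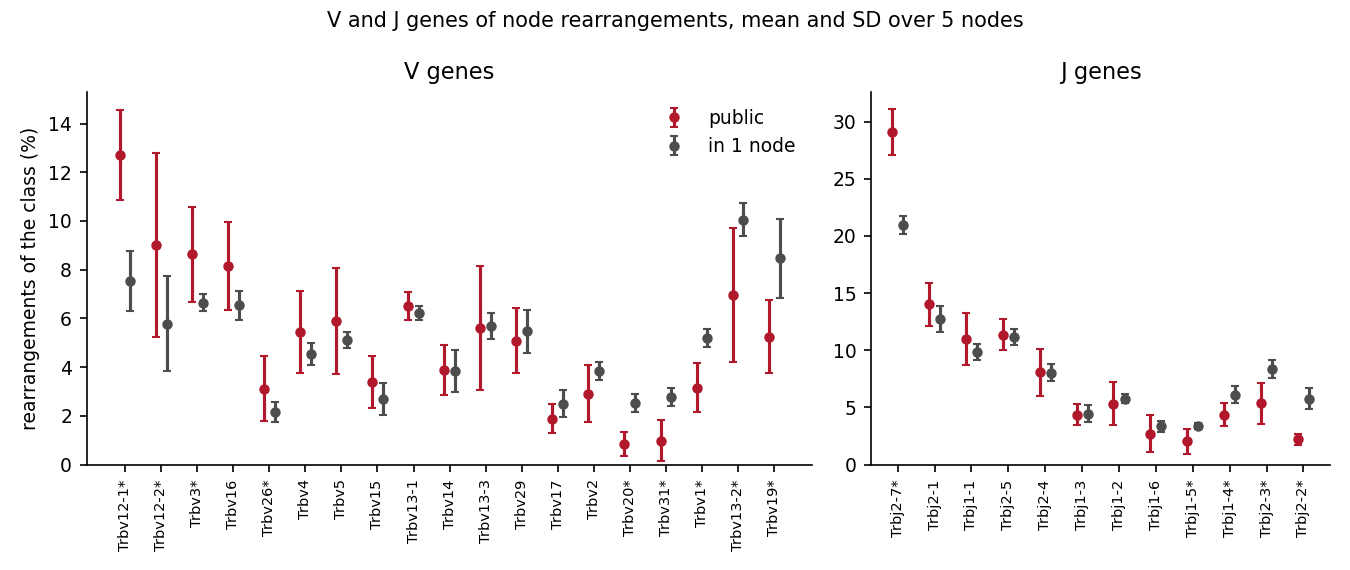
Percentage of distinct rearrangements (y axis) that used each V gene (left) and J gene (right) with a mean share of at least 1%, for public CDR3s (red) and CDR3s of 1 node (grey), as mean and SD over 5 nodes. Genes are ordered from most raised to most lowered in public CDR3s, and an asterisk marks an edgeR adjusted p under 0.05; Trbv12-1 and Trbj2-7 lie at the raised end and Trbv19 and Trbj2-2 at the lowered end.

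Public node CDR3s were found in tumors more often than those of 1 node. Of the 626, 93 (14.9%, 95% Wilson interval 12.3% to 17.9%) occurred in at least 1 tumor, 68 in right tumors, 63 in left tumors and 38 in both. Of the 12878 CDR3s of 1 node, 488 (3.79%, 3.47% to 4.13%) did. A public CDR3 has several mice in which its own tumors could hold it, so the comparison was made within mice. In the right tumor of the same mouse 16.8%, 13.4%, 11.9%, 2.22% and 4.67% of the public CDR3s of the node were found in mice 1 to 5, against 7.43%, 5.76%, 6.07%, 0.794% and 1.65% of the single-node CDR3s. The share was higher for public CDR3s in 5 of 5 mice, by 5.46 ± 3.26 percentage points (SD, n = 5; exact sign-flip p = 0.0625). It was 7.61 ± 1.78 in mice 1 to 3 and 2.22 ± 1.12 in mice 4 and 5 (SD over 3 and 2 mice), where the node was larger. With mouse 4 or mouse 5 left out of both the rule and the test, it was 8.53 or 8.52. The public CDR3s then numbered 242 or 236. With the same V and J gene required for a CDR3 to count as public, the differences were 10.7 points in the right and 7.45 in the left tumor.

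In the left tumor the shares were 14.4%, 12.3%, 1.40%, 0.222% and 4% for public and 4.95%, 5.17%, 0.280%, 0.188% and 0.639% for single-node CDR3s. The difference was 4.22 ± 3.99 percentage points (SD, n = 5, exact sign-flip p = 0.0625). It was 5.90 ± 4.30 in mice 1 to 3 and 1.70 ± 2.35 in mice 4 and 5 (SD over 3 and 2 mice). With mouse 1 or mouse 5 left out of the rule and the test, it was 2.74 or 6.85. In mouse 4, whose left tumor had 238 productive templates, 1 public CDR3 of the node was found. CDR3s with more node templates are found more readily in a second sample. With both classes limited to CDR3s of 1 template in each node that held them, the difference was 2.82 points in the right and 0.891 in the left tumor, in place of 5.46 and 4.22. It was above 0 in 5 of 5 right tumors but in 3 of 5 left tumors, where the SD of 0.994 exceeded the difference (exact sign-flip p = 0.25, n = 5). A difference was also found in mice whose own node lacked the CDR3. Of such CDR3s, 2.20%, 1.57%, 1.45%, 1.14% and 5.68% of those found in at least 2 other nodes occurred in a tumor of mice 1 to 5, against 0.596%, 0.417%, 0.102%, 0.272% and 0.779% of those found in 1 other node. The difference was 1.97 ± 1.66 percentage points (SD, n = 5, exact sign-flip p = 0.0625). It was 1.37 ± 0.226 in mice 1 to 3 and 2.89 ± 2.85 in mice 4 and 5. With mouse 4 left out of the rule and the test, so that fewer CDR3s counted as public, it was 4.67. With mouse 5 left out in the same way, it was 2.40 and above 0 in 3 of 4 mice. Limited to CDR3s of 1 template in each node, it was 1.78 ± 1.20, above 0 in 4 of 5 mice (SD, n = 5, exact sign-flip p = 0.125). With at least 2 templates required in a node, it was above 0 in 4 of 5 mice, and the SD of 2.41 exceeded the difference.

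**Figure D4:**
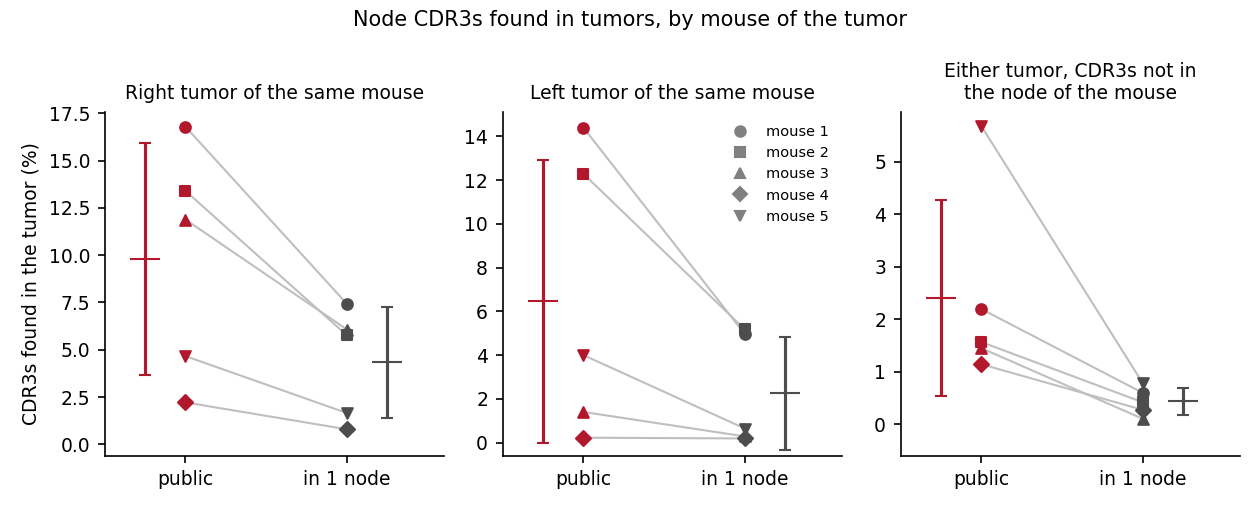
Percentage of CDR3s found in a tumor (y axis) for public CDR3s (red) and CDR3s of 1 node (grey): CDR3s of the node in the right and in the left tumor of the same mouse, and CDR3s absent from the node of the mouse in either of its tumors. Symbols are mice, lines join values of one mouse and bars give mean and SD (n = 5). Public CDR3s lie higher in every mouse and panel, least so in the left tumor of mouse 4, at 0.222% against 0.188%.

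The share found in a tumor was higher for CDR3s of more nodes, at 3.79% of those in 1 node, 12.8% of those in 2 nodes, 26.9% of those in 3, and 5 of the 14 in 4 or 5 nodes (35.7%). A CDR3 of more nodes has more mice whose own tumors can hold it. Node templates per CDR3 rose as well, with means of 1.94, 4.86, 14.4 and 18.5 in these groups. The rise in the share was not tested. Tumors of at least 2 mice held 35 public CDR3s (20 in 2 mice, 10 in 3, and 5 in 4 or 5). For 26 of these 35 the same coding sequence was found in the tumors of at least 2 mice, and for 9 it differed in every mouse.

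Where a public CDR3 was found in both the node and a tumor of one mouse, the DNA was usually the same. Over all tumors this held for 131 of 154 cases (85.1%), against 478 of 507 (94.3%) for single-node CDR3s. In the right tumors it held for 21 of 21, 24 of 24 and 17 of 17 cases in mice 1 to 3, for 6 of 10 in mouse 4 and for 12 of 21 in mouse 5. In the left tumors it held for 14 of 18, 22 of 22, 1 of 2, 1 of 1 and 13 of 18 cases in mice 1 to 5. For single-node CDR3s of the left tumors it held in 55 of 56, 69 of 70, 1 of 3, 9 of 9 and 18 of 29 cases. In the left tumor of mouse 5 the single-node share (62.1%) was thus not above that of public CDR3s. For single-node CDR3s of the right tumors of mice 4 and 5 it held in 35 of 38 and 66 of 75 cases. The remaining public CDR3s of the right tumors of mice 4 and 5 were thus coded by other rearrangements in the tumor than in the node. In 40 further cases a public CDR3 was found in a tumor of a mouse whose node lacked it, and in 18 of these the tumor carried a coding sequence seen in the node of another mouse.

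Templates of public CDR3s in tumors were concentrated in a few clones. Public CDR3s held 23.1%, 14.8%, 66.4%, 7.41% and 12.7% of the productive templates of the right tumors of mice 1 to 5. In the left tumors they held 17.4%, 12.9%, 4.62%, 4.20% and 11.9%. Without the largest public CDR3 of each tumor, the right tumor shares were 6.06%, 6.81%, 3.65%, 1.04% and 6.44%. Of the 93 public CDR3s in tumors, 14 with at least 50 templates held 91.6% of the 7086 tumor templates of the set. Most were small, with a median of 1.5 to 6 templates per right tumor.

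**Figure D5:**
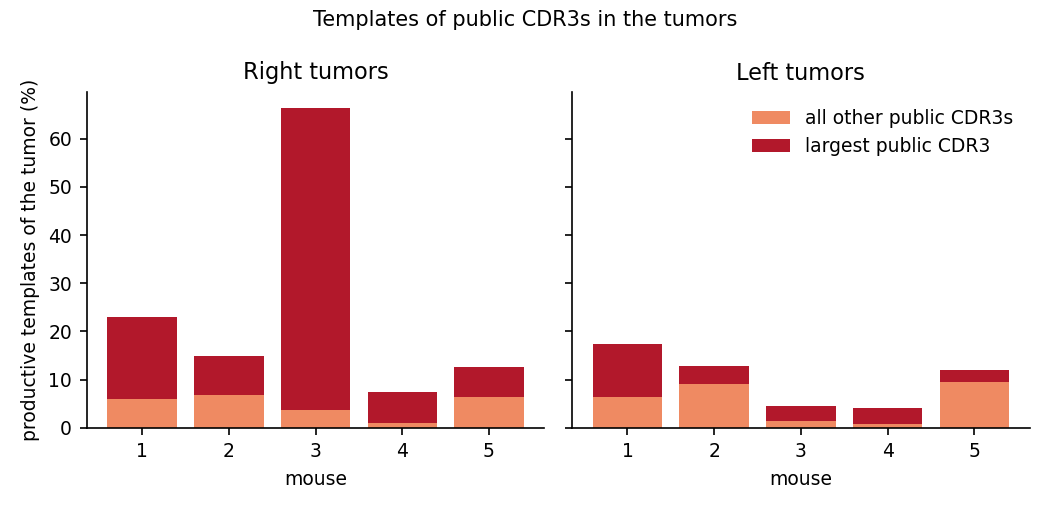
Percentage of productive templates (y axis) held by public CDR3s in the right and left tumors of mice 1 to 5 (x axis), divided into the largest public CDR3 of the tumor (dark red) and all others (orange), 1 sample per bar. The bar of the right tumor of mouse 3 reaches 66.4%, of which a single CDR3 made up 62.7%.

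The average size of public CDR3s was above that of the other CDR3s of the same tumor, many of which were found in no node. Mean log2 templates per CDR3 were 2.04, 2.84, 2.41, 1.78 and 1.99 for public and 1.37, 1.62, 1.71, 1.30 and 1.55 for other CDR3s in the right tumors of mice 1 to 5. The difference of 0.71 ± 0.313 (SD, n = 5; exact sign-flip p = 0.0625) was positive in 5 of 5 mice, 0.87 ± 0.310 in mice 1 to 3 and 0.46 ± 0.0279 in mice 4 and 5, and corresponds to a ratio of 1.63. Among tumor CDR3s that were also found in the node of the same mouse, it was 0.05 ± 0.261 and positive in 3 of 5 mice (SD, n = 5; exact sign-flip p = 0.75), so a size difference between public and other node CDR3s was not shown in the right tumors. Over all tumor CDR3s it was 0.31 when mouse 3 was left out of the rule and the test, and 1.27 when mouse 5 was. In the left tumors the log2 values were 1.95, 2.66, 2.59, 2 and 1.94 for public and 1.41, 1.29, 2.15, 1.17 and 0.69 for other CDR3s. The difference there was 0.89 ± 0.413 (SD, n = 5; exact sign-flip p = 0.0625), with 0.79 ± 0.508 in mice 1 to 3 and 1.04 ± 0.295 in mice 4 and 5. Among CDR3s also found in the node of the same mouse it was 1.36 ± 0.932 (SD, n = 5; exact sign-flip p = 0.0625), with 2 public CDR3s in mouse 3 and 1 in mouse 4. Over all CDR3s of the left tumors it was 0.59 without the CDR3s that had an identical rearrangement in several nodes. With mouse 5 left out of the rule and the test, it was 1.46.

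The largest public clones of the tumors were each dominated by one mouse. Their main coding sequences are shown because most of their tumor templates carried them.
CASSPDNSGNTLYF, Trbv12-1 to Trbj1-3: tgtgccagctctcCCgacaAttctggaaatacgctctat
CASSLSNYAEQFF, Trbv3 to Trbj2-1: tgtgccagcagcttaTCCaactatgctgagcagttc
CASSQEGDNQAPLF, Trbv2 to Trbj1-5: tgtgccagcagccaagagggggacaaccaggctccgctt
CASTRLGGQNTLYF, Trbv19 to Trbj2-4: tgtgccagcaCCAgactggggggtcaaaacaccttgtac
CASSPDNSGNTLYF had 2492 templates in the right and 122 in the left tumor of mouse 3, 109 in its node, and 31, 39 and 27 in the right tumor of mouse 4 and the left tumors of mice 1 and 2. Among nodes, that of mouse 3 alone held the main rearrangement of this CDR3, at 106 templates. The CDR3 had this same DNA in 31, 38 and 25 templates of right tumor 4 and left tumors 1 and 2. It was public through 1 template in the node of mouse 4, with the Trbv14 sequence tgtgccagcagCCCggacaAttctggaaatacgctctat, which differs from the sequence of node 3 and was found in no tumor.

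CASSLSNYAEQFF was coded by the same rearrangement in the nodes of mice 1, 2 and 4, at 106, 3 and 5 templates. It had 1045 templates in the right and 434 in the left tumor of mouse 1, 89 in the left tumor of mouse 2, and 4 and 2 in the right tumors of mice 2 and 5. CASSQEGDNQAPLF, which carried no N insertion, had 94, 9 and 6 templates in the nodes of mice 1, 4 and 5. In tumors it had 269 templates on the right and 113 on the left in mouse 1, and 24 and 34 in the left tumors of mice 2 and 5. Both of these CDR3s had most of their templates in mouse 1 and fewer, with identical DNA, in others. How the same DNA came to be listed for several mice was not tested for them, for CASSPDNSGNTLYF or for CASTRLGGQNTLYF.

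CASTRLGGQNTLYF had different coding sequences in its 2 nodes. That of node 4, shown above, had 1 template there, 335 in the right tumor of mouse 4, 14 in the right tumor of mouse 5 and 8 in the left tumor of mouse 4. That of node 3, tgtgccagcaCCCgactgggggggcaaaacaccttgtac, had 7 templates there and 27 in the right tumor of mouse 3. A 15-residue CDR3 of Trbv5 and Trbj2-3 had 337 templates in the right tumor of mouse 2, 125 in its left tumor, 17 in the left tumor of mouse 1, and 13 and 4 in the nodes of mice 2 and 3.

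Further CDR3s found in several nodes are given with their tumor templates. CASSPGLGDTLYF (Trbv5 to Trbj2-4) had 3, 2, 4, 0 and 2 templates in the nodes and 10, 1 and 3 in the right tumors of mice 1 to 3. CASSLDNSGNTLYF (Trbj1-3), with 12 node templates in 5 coding sequences, had 2 templates in the right tumor of mouse 3 and none in the other tumors. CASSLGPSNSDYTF, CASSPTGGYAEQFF and a 15-residue CDR3 of Trbv13-2 and Trbj2-5, with 11, 11 and 7 node templates, had none in any tumor. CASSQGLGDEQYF (Trbv5 to Trbj2-7), at 6, 12 and 26 templates in the nodes of mice 1, 3 and 5, had 4, 23 and 2 in the right tumors of the same mice. Detection in a tumor thus varied among CDR3s of similar node size.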

How the data were processed

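Genomic DNA of sorted CD8+ PD-1+ CD44+ cells was sequenced with the immunoSEQ assay by its provider, and the deposited values, counts of templates for each 87-base TCR β rearrangement, were used as they are. The files also list CDR3, V, D and J genes, N insertions and frame. The submitters' processing notes name the mm10 build, and the software version was not given in the sources used here. No column of other samples was present.

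CDR3s were compared as the files list them, and 68 productive node rearrangements lacked a leading cysteine or closing phenylalanine. The public CDR3s, gene lists and tests were chosen with earlier results of these data known. Same-numbered samples were taken as samples of one mouse, since the study describes its node and tumor samples as paired. Values of public and other CDR3s were compared within each mouse by two-sided exact sign-flip permutation tests. Numbers of rearrangements per V or J gene with a mean share of at least 1% were tested with the edgeR quasi-likelihood test with the mouse as a block and Benjamini-Hochberg adjustment. With 5 mice, the sign-flip p is 0.0625 whenever all differences have the same direction, whatever their spread. The edgeR p-values are set against the spread between nodes, which hold the same public CDR3s and so are not independent. The sign-flip test and the edgeR test of V genes were tested on simulated data. There the edgeR test also called unchanged V genes when other V genes were raised in public rearrangements.

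The CDR3s named are those in most nodes (all 5, then 4 by templates, up to 8), the 4 with most variants, the 4 with most templates in right and in left tumors, and the largest in each node; 1 of these is not reported here. The V and J genes named first are those with an adjusted p under 0.05 and the same direction in 5 of 5 nodes. Of 35 V and 14 J gene names, all matched GENCODE M21 (GRCm38) symbols. CDR3s of 15 or more residues are given by their genes. Shares of CDR3s found in any tumor carry 95% Wilson intervals, which cover counting error only. Alternatives changed the key (CDR3 with V and J gene), the CDR3 ends (leading cysteine and closing phenylalanine required), the template minimum, depth (nodes thinned to 3254 templates, 20 draws), small copies of large rearrangements (last 40 bases shared, 50 times the templates), shared rearrangements, medians, the block, scaling, the share filter, DESeq2 and each mouse left out. Leaving out CDR3s with an identical coding sequence in 2 nodes, and comparing tumor sizes only among CDR3s of the node of the same mouse, were chosen after seeing the data. Python 3.11.15, numpy 2.4.6, pandas 2.3.3, scipy 1.17.1, matplotlib 3.10.9, R 4.3.3, edgeR 4.0.16 and DESeq2 1.42.0 were used.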

Additional observations from a re-analysis of the deposited data

Results flagged for a closer look

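In 4 sets of 5 mice, 1 value lay far from the others, by a rule that chance meets in about 1 in 20 such sets. The rule was applied to every within-mouse comparison and to further node and tumor values, so chance alone can flag some sets. The mean length of public CDR3s was highest in the node of mouse 3, at 13.7 residues, against 13.4 to 13.5 in the other nodes. The right tumor of mouse 3 had the highest share of templates in public CDR3s, at 66.4%, of which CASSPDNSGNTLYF made up 62.7%. Among CDR3s absent from the node of the mouse, the share of public ones in its tumors was highest in mouse 5, at 5.68%. The difference from those of 1 other node was also highest there, at 4.90 percentage points.

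Out-of-frame rearrangements were outside the comparisons above, and 16 of them were found in more than 1 node. They had a mean of 2.88 N insertions, and 4 had none.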

How the results depend on the processing

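The 10 within-mouse comparisons kept their direction under every alternative but 1: with medians, the length difference of -0.62 became 0. Without the replicate block (exact permutation of 5 against 5), 8 of these differences passed 0.05, with p = 0.00794 for N insertions in nodes (-1.93), right (-2.35) and left tumors (-1.89), insertion-free share (17.2), length (-0.62), size in right tumors (0.71) and tumors of mice whose node lacked the CDR3 (1.97), and p = 0.0317 for size in left tumors (0.89). The other 2, detection in the right (p = 0.119) and left tumor (p = 0.278) of the same mouse, did not in the same exact test. The block, which can give 0.0625 at best, and the pairing set these p-values.

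With one mouse left out, the differences ranged from -1.97 to -1.84 (insertions, nodes), -2.59 to -2.13 (right), -1.96 to -1.57 (left), 16.3 to 18.6 (insertion-free share), -0.71 to -0.57 (length), 3.86 to 8.53 and 2.74 to 6.85 (right and left detection), 1.90 to 4.67 (node lacking the CDR3), and 0.31 to 1.27 and 0.60 to 1.46 (size, right and left). Here and below, a mouse left out was absent from both the rule and the test, so the set of public CDR3s changed as well. Size in right tumors was 0.05 among CDR3s of the node of the same mouse.

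Called V genes numbered 9 in the main test, 10 without the replicate block, 7 with DESeq2, 6 with each CDR3 counted in 1 node, and 4 to 11 with a mouse left out, where the log2 difference of Trbv3 ranged from -0.051 to 0.58. Called J genes numbered 5, 7 without the block, 4 with DESeq2, 3 to 7 with a mouse left out, 1 with each CDR3 counted in 1 node and 3 with distinct pairs of CDR3 and gene. Exact sign-flip tests of shares called 0 of either, and 0 had an unadjusted p under 0.05, which 5 mice cannot reach. The cause of these changes was not tested. The set held 626 CDR3s, 293 with the same V and J gene required, 261 with at least 2 templates in a node, and 316.9 on average with nodes thinned to 3254 templates.

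Detection is limited by depth: 44.7% of the public CDR3s of a node rested on 1 template, and a left tumor of 238 templates cannot show a CDR3 under 1.26% reliably. CDR3s of 1 node are those found in 1 node at these depths.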
